A study of Homo sapiens with 6 samples.

Results

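The 10 genes described here encode the transcription complex at the end of the Hippo pathway and its nearest inhibitors. They are the coactivators YAP1 and WWTR1 (the TAZ protein), the DNA-binding factors TEAD1, TEAD2, TEAD3 and TEAD4, the TEAD cofactor VGLL4, the motins AMOT and AMOTL1, and the kinase LATS1. They were chosen by gene symbol in the platform annotation. Each of the 10 had 1 probe set, among 24241 genes measured. The cells were HepG2, an established human liver cancer line with many functions of hepatocytes, grown in RPMI medium. In the treated group, cells received 0.75 µM verteporfin for 24 hours, and 3 arrays were hybridised. In the control group, cells received the solvent DMSO for 24 hours, also with 3 arrays. All arrays were Affymetrix arrays of total RNA from this 1 line, at 1 dose and 1 time. Verteporfin is a porphyrin photosensitiser and has been described to block the binding of YAP to TEAD; whether the cultures were exposed to light is not stated. Separate cultures for the arrays of a group are not stated either, so the spread behind each p-value is that between these samples and may be technical.

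In the Hippo pathway, the kinases STK3 and STK4 with their adaptor SAV1 activate LATS1 and LATS2, which phosphorylate YAP and TAZ so that these are held in the cytoplasm and degraded. YAP and TAZ do not bind DNA themselves and act on genes through TEAD factors. VGLL4 competes with YAP for TEAD, and motins bind YAP and hold it at junctions and in the cytoplasm. In liver the pathway limits organ size, and YAP is often active in liver cancer. The arrays measured transcripts, not the amount, phosphorylation or binding of these proteins.

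Values are levels on the log2 scale, from RMA processing by the submitters, as their processing notes state. All 6 arrays hold the same set of values in different order, so each change is relative to the rest of that array. The median of all values was 4.83, and dimmer probe sets were not separated from background. Across genes, the correlation was 0.995 to 0.997 between arrays of the same group and 0.969 to 0.977 between a verteporfin and a DMSO array. The liver identity of the cells was visible in 10 of 10 measured hepatocyte markers above the median signal, with means of 7.56 (FGB) to 13.2 (APOA2) in verteporfin and 10.3 (FGB) to 13.4 (APOB) in DMSO. Of these markers 8 fell with verteporfin, and their summed linear signal was 25940 to 29473 in verteporfin, against 54507 to 55184 in DMSO; the part of this in the results below was not tested. Of 5 endothelial markers, 0 lay above the median signal, and of 6 fibroblast markers only COL1A1 did (6.45 in verteporfin and 6.57 in DMSO). The leukocyte marker PTPRC read 3.44 in verteporfin and 3.48 in DMSO, close to the lowest value on the arrays, 3.17; of the 5 leukocyte markers measured, LYZ and CD68 lay above the median signal. The summed linear signal of these 5 was 4627 to 5885 in verteporfin, against 10888 to 10968 in DMSO, with LYZ, which read 11.9 in verteporfin and 13.2 in DMSO, as the brightest. CD68, a macrophage marker, moved the other way, at 10.49 in verteporfin and 10.23 in DMSO (log2 difference 0.26 ± 0.06, limma adjusted p = 0.0134), and did not pass in 4 fits with arrays left out (0.0559 to 0.106). The part of these markers in the results was not tested.

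In verteporfin the transcripts of both coactivators, of TEAD2 and TEAD4 and of AMOT were lower, and that of LATS1 was higher. In such bulk RNA, fewer cells with a transcript and less of it per cell cannot be told apart. In limma's test adjusted by Benjamini-Hochberg over all 24241 genes, with a threshold of 0.05, 1 of the 10 genes was higher and 5 were lower, with a median log2 difference of -0.19. Among all genes 28.5% passed, 14.3% as higher and 14.3% as lower, with a median of 0.0049. Calls depended on signal: among the 12257 genes with a mean above the median signal 51.9% passed, and of the 9 members above it 5 passed. The share of members that passed was therefore near that of genes of like signal. The arrays of the 2 groups did not overlap for 6 of the 10 genes, against 39.1% of all genes. Above the median signal this held for 5 of the 9 members and 62.7% of genes. The 6 that passed are described with their values on each array, as are the 4 that did not.

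**Figure D1:**
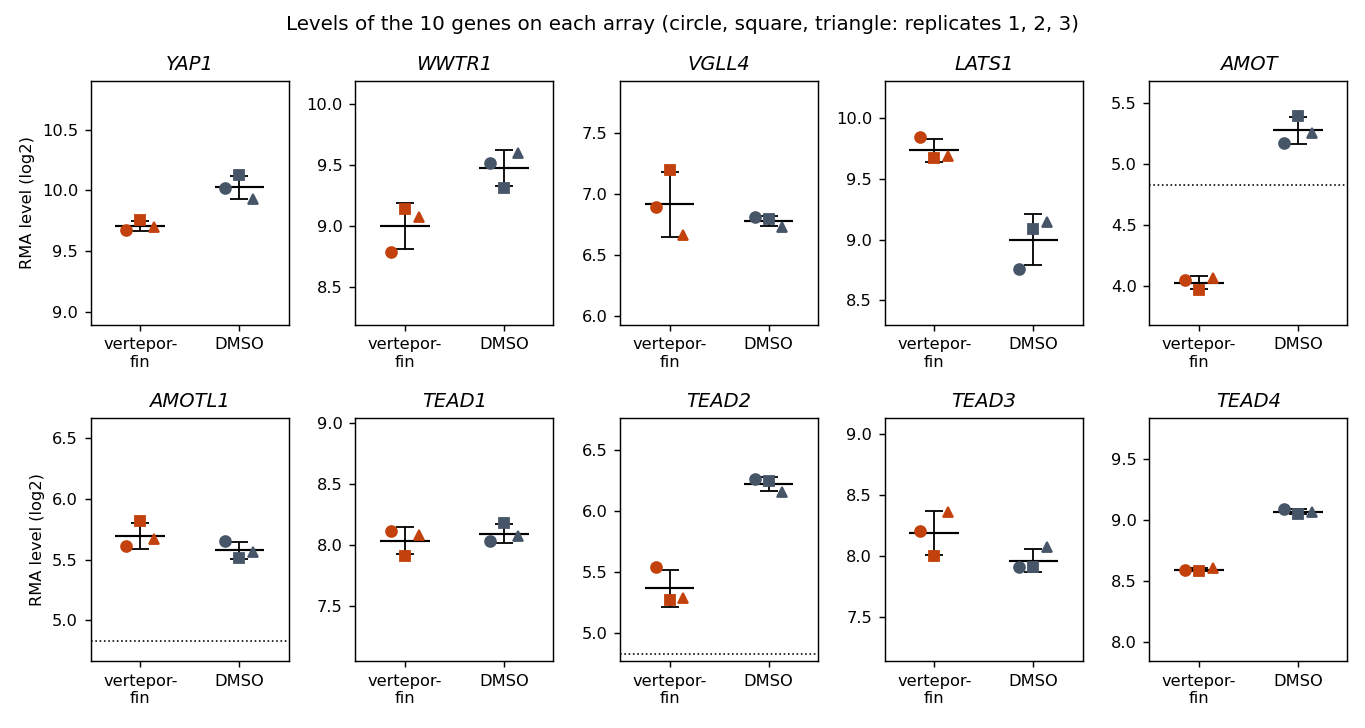
RMA level (log2) of each of the 10 genes on the 3 verteporfin arrays (left, orange) and the 3 DMSO arrays (right, grey); bars give the mean and SD, every panel spans 2 log2 units, and the dotted line is the median signal, 4.83. YAP1, WWTR1, TEAD2, TEAD4 and AMOT were lower in verteporfin on every array and LATS1 was higher, while the arrays of VGLL4, AMOTL1, TEAD1 and TEAD3 overlapped.

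The promoters of the 10 genes were looked up to show the sequence upstream of their starts. RefSeq windows (GRCh38.p14) of 250 bases before the start were held for 8 of the 10 genes, 15 windows in all, since several genes have more than 1 start; TEAD1 and TEAD4 had none. They were searched on both strands for the TEAD motif GGAATG, the AP-1 motif TGANTCA and the cyclic AMP response element TGACGTCA. The TEAD motif was found in 1 of the 15 windows, that of YAP1, beginning at position -162 from the start, and in 11.9% of all 35116 windows. The AP-1 pattern, with any base at N, was found in 6.57% of all windows. Among the 15 it was found in 1, the upstream window of the 2 of LATS1, at position -245. The letters there are TGAATCA, and the middle base is not the C or G of the usual AP-1 site. The cyclic AMP response element was found in 0 of the 15 and in 1.65% of all windows. The GC content of the 15 windows ranged from 29.2% to 84.0%, with 58.0% as the median over all windows. Shown are the 2 windows with a match and the most upstream windows of AMOT and TEAD2, the members with the largest falls, in which none of these letters occur; capitals mark a motif, no matches overlap, and a match is a description of the letters only.
YAP1, chr11:102110197-102110446, plus strand: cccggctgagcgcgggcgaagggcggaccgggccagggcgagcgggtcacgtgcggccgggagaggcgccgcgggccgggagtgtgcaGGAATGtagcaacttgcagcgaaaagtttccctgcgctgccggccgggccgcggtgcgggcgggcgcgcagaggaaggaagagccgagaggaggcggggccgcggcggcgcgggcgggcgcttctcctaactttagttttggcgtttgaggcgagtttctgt
LATS1, chr6:149718102-149718351, minus strand: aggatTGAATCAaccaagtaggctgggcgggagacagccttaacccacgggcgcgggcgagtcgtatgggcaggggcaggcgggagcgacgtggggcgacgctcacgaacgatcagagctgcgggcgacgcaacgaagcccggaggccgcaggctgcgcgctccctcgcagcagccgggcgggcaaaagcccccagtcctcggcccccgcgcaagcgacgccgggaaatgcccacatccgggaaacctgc
AMOT, chrX:112840832-112841081, minus strand: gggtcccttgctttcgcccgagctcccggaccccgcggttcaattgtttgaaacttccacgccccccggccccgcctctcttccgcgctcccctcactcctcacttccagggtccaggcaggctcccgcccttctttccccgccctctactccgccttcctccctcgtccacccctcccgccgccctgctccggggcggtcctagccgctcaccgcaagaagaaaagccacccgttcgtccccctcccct
TEAD2, chr19:49362417-49362666, minus strand: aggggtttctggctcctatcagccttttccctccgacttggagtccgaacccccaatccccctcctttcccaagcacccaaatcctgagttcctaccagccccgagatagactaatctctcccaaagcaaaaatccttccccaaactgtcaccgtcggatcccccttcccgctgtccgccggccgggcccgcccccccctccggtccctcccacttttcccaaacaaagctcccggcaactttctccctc

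YAP1, the coactivator that verteporfin is described to displace from TEAD, had levels of 9.67, 9.76 and 9.70 on the verteporfin arrays, against 10.02, 10.12 and 9.93 on the DMSO arrays. The verteporfin arrays lay within 0.084 of each other, and all 3 were below the lowest DMSO array by at least 0.18. The log2 difference was -0.32 ± 0.07 (SE, with n = 3 arrays in each group throughout; 95% interval -0.48 to -0.15; limma adjusted p = 0.011), so that YAP1 signal stood at 80.3% of its DMSO level. Among genes above the median signal, 23.3% had a lower difference than YAP1. Without replicate 1 of both groups the adjusted p was 0.0955 with a difference of -0.30. The YAP1 window printed above was the only member window with a TEAD motif.

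WWTR1, which encodes the second coactivator TAZ, read 8.78, 9.14 and 9.07 in verteporfin, against 9.52, 9.31 and 9.60 in DMSO. The groups did not overlap, but verteporfin replicate 1 was the lowest and DMSO replicate 2 the nearest to the verteporfin arrays, with a gap of 0.17 between the groups. WWTR1 changed by -0.48 ± 0.12 on the log2 scale (95% interval -0.74 to -0.21; limma adjusted p = 0.0162), or 71.9% of the DMSO level. The estimated fall was larger in size than that of YAP1 but less certain, since the WWTR1 arrays spread more in both groups (SD 0.19 in verteporfin and 0.15 in DMSO, against 0.043 and 0.096 for YAP1). These falls were not told apart, since YAP1 minus WWTR1 on the same array overlapped between the groups (exact permutation p = 0.4). WWTR1 passed in 11 of 15 alternative fits. It did not pass without DMSO replicate 1 (adjusted p = 0.0589), without DMSO replicate 3 (0.0610), without replicate 1 of both groups (0.108) or without replicate 3 of both groups (0.103).

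The 4 TEAD factors, which share the DNA motif and differ mainly in where and when they are made, gave 2 falls and 2 genes that did not pass. TEAD2 had the largest fall of the 4, with 5.54, 5.27 and 5.29 in verteporfin against 6.26, 6.25 and 6.15 in DMSO. Every verteporfin array was below every DMSO array, by at least 0.62. TEAD2 changed by -0.86 ± 0.09 (95% interval -1.06 to -0.65; limma adjusted p = 0.000191), which is a 1.81-fold lower signal and lies among the lowest 7.59% of genes above the median signal. Its level in verteporfin, 5.37 ± 0.15 (SD, n = 3), was near the median signal of 4.83, so the fold is a difference of measured signal.

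TEAD4 read 8.59, 8.59 and 8.61 in verteporfin, against 9.10, 9.05 and 9.07 in DMSO. It was the least variable of the 10 genes, with SDs of 0.014 in verteporfin and 0.024 in DMSO. The groups were 0.44 apart at their nearest arrays, and the log2 difference was -0.48 ± 0.06 (95% interval -0.61 to -0.34; limma adjusted p = 0.000425). The estimated size was the same as for WWTR1, with an SE of 0.06 for TEAD4 and 0.12 for WWTR1. Both TEAD2 and TEAD4 passed in 15 of 15 alternative fits.

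TEAD1 did not pass. It read 8.11, 7.91 and 8.08 in verteporfin, against 8.03, 8.17 and 8.07 in DMSO, and the groups overlapped. The log2 difference was -0.06 ± 0.08 (limma adjusted p = 0.705), with a 95% interval of -0.24 to 0.13, so a fall as large as that of TEAD4 or TEAD2 lay outside it.

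TEAD3 read 8.20, 8.0 and 8.36 in verteporfin, against 7.90, 7.90 and 8.07 in DMSO. Verteporfin replicate 2 lay below DMSO replicate 3, so the groups overlapped, and the log2 difference of 0.23 ± 0.10 did not pass (95% interval -0.01 to 0.47; limma adjusted p = 0.162). Without verteporfin replicate 2 the difference was 0.32 and passed (adjusted p = 0.0371). Without replicate 2 of both groups it did not pass (difference 0.29, adjusted p = 0.0935).

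VGLL4, the cofactor that competes with YAP for TEAD, read 6.89, 7.19 and 6.66 in verteporfin, against 6.81, 6.79 and 6.73 in DMSO. Its verteporfin arrays enclosed the DMSO arrays and spread over 0.53, against 0.080 in DMSO. Only 8.88% of genes above the median signal had a larger or equal SD in verteporfin than VGLL4. The log2 difference was 0.14 ± 0.13 (95% interval -0.15 to 0.43; limma adjusted p = 0.529) and ranged from 0.00081 to 0.27 over 15 alternative fits, none of which passed.

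**Figure D2:**
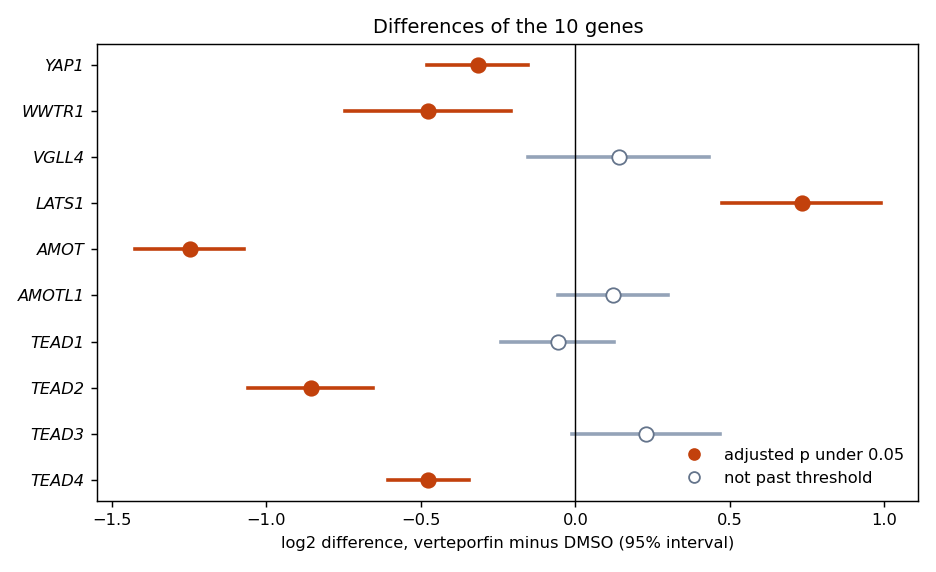
Log2 difference, verteporfin minus DMSO, of each gene with its 95% interval from limma; filled points passed at an adjusted p under 0.05. AMOT (-1.25) and TEAD2 (-0.86) lie lowest, LATS1 (0.73) is the 1 gene that passed as higher, and the intervals of VGLL4, AMOTL1, TEAD1 and TEAD3 include 0.

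AMOT, the motin that gives the family its name, had the largest change of the 10. It read 4.05, 3.97 and 4.07 in verteporfin, against 5.17, 5.40 and 5.25 in DMSO. The groups were 1.11 apart at their nearest arrays, which is 4.96 times the spread of the DMSO arrays (0.22). AMOT changed by -1.25 ± 0.08 on the log2 scale (95% interval -1.43 to -1.07, limma adjusted p = 1.63e-05). This puts AMOT among the lowest 1.98% of all genes. Among genes above the median signal, the base used for the other members, 3.92% had a lower difference. AMOT passed in 14 of 14 alternative fits that held the gene. The verteporfin mean, 4.03 ± 0.05 (SD, n = 3), lay below the median signal, so that the value describes measured signal and not the size of the change in transcript. A low value on these arrays does not show that a transcript is missing: SKP1, an ubiquitin ligase subunit that every cell uses, read 4.24 in verteporfin and 4.36 in DMSO.

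AMOTL1, a second motin, did not pass. It read 5.61, 5.81 and 5.67 in verteporfin, against 5.65, 5.51 and 5.56 in DMSO, so that DMSO replicate 1 lay above verteporfin replicate 1. The log2 difference was 0.12 ± 0.08 (95% interval -0.06 to 0.30; limma adjusted p = 0.335). The third motin, AMOTL2, which is also a described YAP/TAZ target, fell by 0.43 on the log2 scale (log2 difference -0.43 ± 0.08; limma adjusted p = 0.0039), with levels of 5.65 in verteporfin and 6.08 in DMSO. The 3 motins thus gave 2 falls and 1 gene that did not pass.

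LATS1, the kinase that phosphorylates YAP and TAZ, was the 1 member that rose. It read 9.84, 9.67 and 9.69 in verteporfin, against 8.76, 9.09 and 9.15 in DMSO. DMSO replicate 1 was low, 0.33 below replicate 2, yet the groups were 0.52 apart at their nearest arrays. LATS1 rose by 0.73 ± 0.11 on the log2 scale (95% interval 0.48 to 0.99; limma adjusted p = 0.00151), a 1.66-fold higher signal, and 90.6% of genes above the median signal had a lower difference. Without DMSO replicate 1 the difference was 0.61 (adjusted p = 0.0024), and the call held in 15 of 15 alternative fits. LATS2, its paralogue and a described YAP/TAZ target, read 7.68 in verteporfin and 7.80 in DMSO, a log2 difference of -0.12 ± 0.07 that did not pass (limma adjusted p = 0.312).

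Levels of different probe sets cannot be set against each other, but the difference between a pair of genes on the same array shows whether they changed unequally. It was computed for 5 pairs, with exact two-sided permutation tests over the 6 arrays, for which 0.1 is the smallest p that 3 against 3 arrays can give. AMOT minus AMOTL1 was -1.56, -1.85 and -1.60 in verteporfin, against -0.48, -0.12 and -0.31 in DMSO, a change of -1.37 (exact permutation p = 0.1, 0.125 adjusted over the 5 pairs). TEAD2 minus TEAD1 was -2.57, -2.64 and -2.79 in verteporfin, against -1.76, -1.93 and -1.92 in DMSO, a change of -0.80 with the same p. TEAD4 minus TEAD1 was 0.48, 0.68 and 0.53 in verteporfin, against 1.07, 0.88 and 1.0 in DMSO, a change of -0.42, also with p = 0.1 in the exact permutation test. In these 3 pairs every verteporfin array was below every DMSO array. Each pair sets a gene that fell against one that did not pass, so this restates the single-gene differences and is no further support.

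YAP1 minus VGLL4 was 2.78, 2.56 and 3.04 in verteporfin, against 3.21, 3.33 and 3.20 in DMSO, a change of -0.46 (exact permutation p = 0.1, 0.125 adjusted over the 5 pairs). This difference was lower on all 3 verteporfin arrays, with verteporfin replicate 3 the nearest to DMSO. It restates the fall of YAP1 together with the VGLL4 difference of 0.14, which did not pass, and does not compare the amounts of the 2 transcripts. YAP1 minus WWTR1 was 0.89, 0.62 and 0.63 in verteporfin, against 0.50, 0.82 and 0.34 in DMSO, and the groups overlapped. Its change of 0.16 had an exact permutation p of 0.4 (0.4 adjusted over the 5 pairs), and it ranged from 0.053 to 0.29 when each array was left out.

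**Figure D3:**
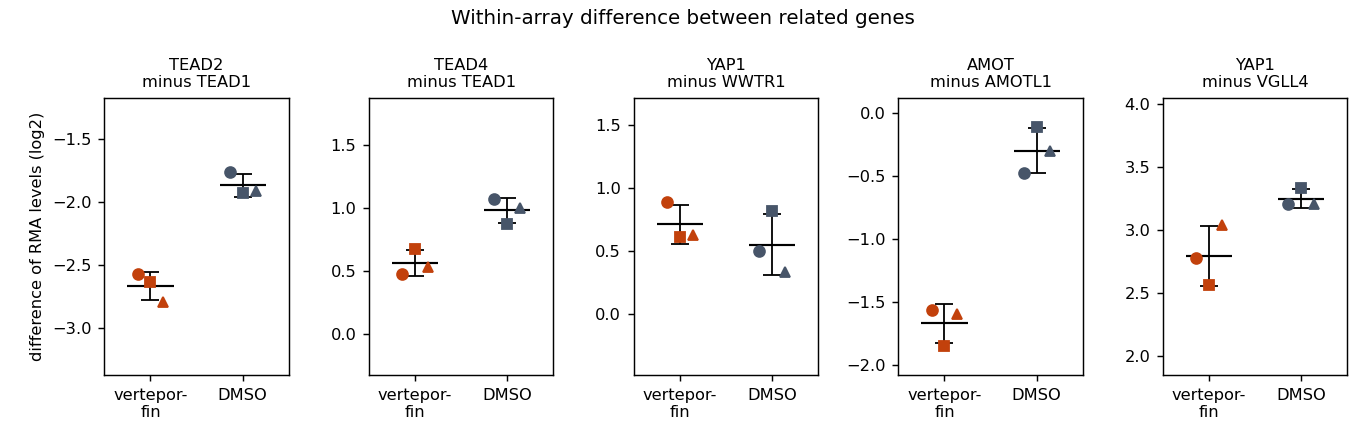
Within-array difference of RMA levels (log2) for 5 pairs of genes on the 3 verteporfin arrays (left, orange) and the 3 DMSO arrays (right, grey), with the mean and SD; every panel spans the same number of log2 units. The groups are apart for 4 pairs and overlap for YAP1 minus WWTR1.

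The genes whose values over the 6 arrays were most like those of AMOT, by root mean square distance after centring on the DMSO mean among 12257 genes, were POLE2 (0.036 log2 units), ATP8A1 (0.053) and C8A (0.057). For LATS1, among 12256 genes, they were PIAS3 (0.043), CHPF2 (0.049) and DIPK1A (0.066). In these 6 genes the difference was -1.24, -1.31 and -1.23 beside AMOT, and 0.69, 0.76 and 0.71 beside LATS1. With 2 groups on 6 arrays, this likeness mostly reflects the size of the group difference.

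Around the 10 genes, 87 of 93 other Hippo pathway genes in 8 lists by role were measured, and the other 6 were not analysed here. Of the 87, 33 were higher and 15 lower (55.2% passed), with a median log2 difference of 0.20. Of these, 79 lay above the median signal, where 47 passed, beside 51.9% of all genes at that signal. Without replicate 3 of both groups, 29 of the genes passed, and 32 without replicate 1 of both groups.

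Among the core kinases and adaptors, with the LATS1 paralogue LATS2 counted here, 2 of 6 rose and the other 4 did not pass. All 6 lay above the median signal, where 51.9% of all genes passed. The scaffold SAV1 was at 7.11 in verteporfin and 6.72 in DMSO, a log2 difference of 0.39 ± 0.08 (limma adjusted p = 0.00629), and the kinase STK4 changed by 0.26 ± 0.08 (0.0380). STK4 did not pass in 8 alternative fits, with replicate number as a block among them (adjusted p = 0.0621), and SAV1 did not pass without replicate 1 of both groups (0.0772). The other 4 genes had differences between -0.14 and 0.43, and 1 to 3 of the 6 passed when arrays were left out.

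Of the MAP4K and TAO kinases, which can also activate LATS kinases, 1 of 8 rose and 2 fell. Above the median signal 3 of 6 passed, beside 51.9% of all genes at that signal. MAP4K4 read 9.96 in verteporfin and 10.91 in DMSO and fell by 0.95 on the log2 scale (limma adjusted p = 2.71e-05). MINK1 fell by 0.61 on that scale (0.0033) and MAP4K5 rose by 0.39 (0.00348). The 3 TAO kinases did not pass, with differences between -0.05 and 0.14.

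Of 12 genes listed as membrane scaffolds, not all of which bring Hippo kinases together, 3 rose and 3 fell. Above the median signal 5 of 10 passed, beside 51.9% of all genes at that signal. WWC1, known as KIBRA, fell by 0.58 on the log2 scale (limma adjusted p = 0.000514) and NF2, which encodes merlin, by 0.38 (0.00575). FRMD6 changed by -0.41 (0.00302) with both groups below the median signal, and WWC3 by 0.76 (0.00344) with DMSO below it. With replicate 1 of both groups left out NF2 did not pass (0.0570), and with replicate 3 of both left out neither NF2 (0.0663) nor WWC3 (0.0525) did. Of the 12, 3 passed without replicate 1 of both groups and 2 without replicate 3 of both groups.

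The STRIPAK complex, a phosphatase assembly that switches off STK3, STK4 and MAP4K kinases, had 7 of 12 measured genes higher and 1 lower, with a median difference of 0.38. All 12 lay above the median signal, where 8 of them and 51.9% of all genes passed. PDCD10 read 8.29 in verteporfin and 7.22 in DMSO, a log2 difference of 1.07 ± 0.09 (limma adjusted p = 8.28e-05). The catalytic subunit PPP2CB rose by 0.85 (4.59e-05), the striatin STRN3 by 0.56 (0.000300) and CTTNBP2NL by 0.70 (0.000609). PPP2CA, the other catalytic subunit in the list, named after its value was seen, did not pass (0.11, limma adjusted p = 0.417). The phosphatase scaffold PPP2R1A, named after its value was seen, was the 1 gene that fell, at -0.32 (0.00427), and it did not pass without replicate 1 (0.0526) or without replicate 3 (0.0625) of both groups. The count was 5 without replicate 1 of both groups.

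Of 13 genes for apical and basolateral polarity proteins, which anchor the pathway at junctions, 4 rose and 5 fell. All 13 lay above the median signal, where 9 of them and 51.9% of all genes passed. DLG1 fell by 0.92 on the log2 scale (limma adjusted p = 2.43e-05) and MPDZ by 0.40 (0.00342), while PARD6B rose by 0.69 (0.000428) and the atypical protein kinase C gene PRKCI by 0.57 (0.00146). Without replicate 3 of both groups, 4 of the 13 passed.

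Among genes that act on motin proteins, together with AMOTL2, 3 of 8 rose and 2 fell. All 8 lay above the median signal, where 5 of them and 51.9% of all genes passed. The tankyrases, which mark motins for destruction, rose, TNKS by 0.54 (limma adjusted p = 0.000488) and TNKS2 by 0.43 (0.00171). The ubiquitin ligase gene ITCH rose by 0.71 (8.91e-05) and NEDD4L fell by 0.44 on the log2 scale (0.00156). RNF146, the ligase that acts with tankyrases, was at 0.20 ± 0.11 and did not pass (0.264), but did without replicate 2 of both groups (0.37, 0.0401).

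In the list of genes for proteins that act on the retention, turnover or phosphorylation of YAP, 7 of 17 were higher and 1 was lower. Above the median signal lay 16 of the 17, of which 8 passed, beside 51.9% of all genes at that signal. The roles of the listed genes are mixed, so the count gives no direction for YAP itself. SFN, which encodes the 14-3-3 sigma protein, read 10.88 in verteporfin and 8.58 in DMSO, a log2 difference of 2.30 ± 0.09 (limma adjusted p = 2.48e-06). The kinase NLK rose by 0.67 (0.000281), YES1, the kinase after which YAP is named, by 0.32 (0.00822) and SRC by 0.35 (0.0116). The 14-3-3 gene YWHAQ, named after its value was seen, was the 1 that fell, at -0.30 (0.0192), and it did not pass in 5 fits with arrays left out (adjusted p 0.0561 to 0.128). The calls of YES1 and SRC were each lost in 2 fits with replicates left out (adjusted p up to 0.0923 and 0.0694). Of the 17, 5 passed without DMSO replicate 2, and 3 to 5 when a replicate of both groups was left out.

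Other cofactors of TEAD and general coactivators were higher for 6 of 11 measured genes and lower for 1. Above the median signal 7 of 8 passed, beside 51.9% of all genes at that signal. The AP-1 factors, which often bind beside TEAD, rose, with FOSL1 at 9.65 in verteporfin and 7.73 in DMSO (log2 difference 1.92 ± 0.10, limma adjusted p = 6.97e-06) and JUN at 9.82 in verteporfin and 8.40 in DMSO (1.42 ± 0.10, 2.89e-05). The steroid receptor coactivator gene NCOA1 rose by 0.76 (5.39e-05) and NCOA2 fell by 0.69 on the log2 scale (0.000470). VGLL1, VGLL2 and VGLL3, relatives of VGLL4, lay below the median signal in both groups and did not pass.

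Of 22 described target genes of YAP and TAZ, 5 rose and 7 fell, beside 28.5% of all genes that passed. Of the 22, 17 lay above the median signal and 11 of these passed, beside 51.9% of all genes at that signal. AXL read 9.20 in verteporfin and 7.47 in DMSO, a log2 difference of 1.73 (limma adjusted p = 4.72e-06), and GADD45A changed by 0.84 (3.23e-05). CCN2 read 7.77 in verteporfin and 9.48 in DMSO, a log2 difference of -1.71 (7.97e-05), and NT5E changed by -1.63 (4.56e-05).

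**Figure D4:**
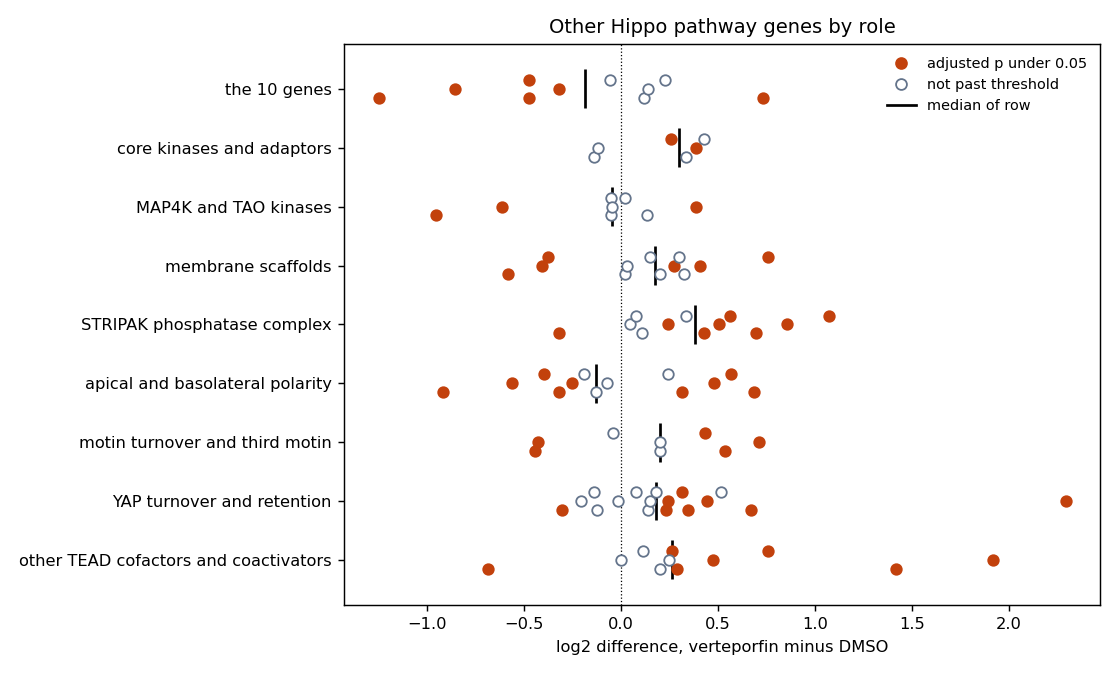
Log2 difference, verteporfin minus DMSO, of the 10 genes (top row) and of the measured genes in 8 lists of other Hippo pathway genes; filled points passed at an adjusted p under 0.05, and the black tick is the median of the row. The medians run from -0.19 for the 10 genes to 0.38 for the STRIPAK complex, and the farthest point to the right is SFN at 2.30.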

How the data were processed

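RNA of 3 verteporfin and 3 DMSO samples was measured on 1 Affymetrix array each. The deposited table holds log2 levels from RMA, per the submitters' processing notes, and that they are log2 was read from their range, 3.17 to 13.8. Version, array model and the name of the probe set definition are not given in the sources. The identifiers of 100% of the named probe sets were the Entrez gene number with _at added. Probe sets were thus built by gene, and 1 probe set for each member follows from that. The table held 25582 probe sets, of which 24244 had 1 gene symbol in the platform annotation, 0 several and 1338 none. For 3 symbols with several probe sets, the brightest stood for the gene. limma 3.58.1 (R 4.3.3) tested each gene by lmFit and eBayes, verteporfin minus DMSO, two-sided, adjusted by Benjamini-Hochberg over 24241 genes. The alternatives were another variance prior, a filter on dim genes, other probe set rules, recentred arrays, a replicate block and arrays left out. The number of arrays limits the precision. Data were simulated for this comparison, with 24241 genes and 50 changed at each size. There, 86% of changes of -1, 46% of -0.5, 62% of 0.5 and 88% of 1 on the log2 scale were called. Only 200 genes were changed in all, while 28.5% of genes passed in the real data. The adjusted threshold was thus stricter in the simulation, so these shares are not the recovery of the test on the real data. All 10 members are named, with up to 4 genes of each other list by smallest adjusted p, or 2 where none passed, and the 3 genes most like the member that fell and the member that rose with the smallest p. AMOTL2, LATS2, RNF146, SKP1, the marker genes, YWHAQ, PPP2R1A, PPP2CA and VGLL1 to VGLL3 are named outside this rule, after their values were seen. The members and lists were chosen with earlier results of these data known, so no set test was run.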

Additional observations from a re-analysis of the deposited data

How the results depend on the processing

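Of the 10 genes, 6 passed, and 4 to 7 did when arrays were left out; the number was 6 with another variance prior, other probe set rules, recentred arrays or replicate number as a block, and 5 with dim genes filtered out, which removes AMOT. TEAD2, TEAD4, LATS1 and, where it was tested, AMOT passed in all of these fits. Over all genes 6916 passed, 5028 to 6626 with arrays left out. Of the other pathway genes 48 passed, 29 to 50 with arrays left out and 55 with another variance prior; the fits without a replicate of both groups have fewer arrays. No pairing by replicate number was seen: deviations of same-numbered arrays correlated at -0.02, -0.15 and -0.01. Those of other-numbered arrays correlated at -0.10 to 0.11. With 3 arrays in a group this cannot exclude a pairing. With the replicate block 6359 genes and 42 other pathway genes passed, and among the named genes only the STK4 call was lost. Detection calls were not analysed here, so the size of changes near or below a level of 4.83 is not known.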
